A study of Mus musculus with 5 samples.

Results

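Isg15, Uba7, Ube2l6, Herc6 and Usp18, the genes of the ISG15 conjugation and removal cycle, were followed in single-nucleus RNA sequencing (snRNA-seq) data from the mouse brain. They were chosen by symbol, as the modifier, its E1, E2 and E3 enzymes and its protease, and all 5 were among the 32285 genes of the deposited count matrices.

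ISG15 is a small protein with a fold like ubiquitin that is made in quantity when cells respond to type I interferon. It is attached to other proteins in a cascade like that of ubiquitin. UBA7 is the E1 enzyme that activates ISG15, UBE2L6 is the E2 enzyme that carries it, and in mice HERC6 is the main E3 ligase that passes it on to target proteins. USP18 cuts ISG15 off its targets again, and it also binds the type I interferon receptor and dampens its signalling. All 5 genes are known as interferon-stimulated genes, and microglia, the resident macrophages of the brain, are among the cells in which such genes respond.

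The study asked what follows when the DNA sensor cGAS is made active in microglia through R241E, a mutation that frees it from its inhibition by nucleosomes. DAPI marked nuclear DNA, nuclei negative for the neuronal protein NeuN and, in the study's methods, for the oligodendrocyte-lineage protein Olig2 were sorted, and libraries were made with the 10x Genomics 3′ chemistry, in which a unique molecular identifier (UMI) marks each captured RNA molecule. The labels name the tissue as hippocampus, and the extraction protocol names brain. Each of the 5 libraries came from 1 mouse.

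The 2 R241E libraries came from mice labelled Tmem119-creERT2-cGaswt/R241E, which carry 1 R241E allele and the Tmem119-creERT2 driver. The 3 WT libraries came from mice labelled Tmem119-creERT2-cGaswt/wt, which carry the same driver and no such allele. Per the methods of the study, tamoxifen switched the allele on in young adult mice, and the driver acts mainly, not only, in microglia and brain macrophages. In its results the study names the controls of this experiment as heterozygous for the allele, whereas its methods and the labels name wild-type Cgas. The labels were followed. A text on H151 and DMSO given to aged mice accompanies all samples, but no label assigns either to a library, so treatment was not used.

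The files held 9748 nuclei, 1381 to 2490 per library, with 4183709 to 10130667 UMIs per library, and 9505 nuclei passed the limits on genes, UMIs and mitochondrial UMIs. The median was 2125.5 to 3364 UMIs per kept nucleus, highest in R241E replicate 1, and any pair of libraries shared at most 2 cell barcodes. Clustering gave 24 clusters. Microglia, the labelled cell type, were clusters 1, 2, 3, 14 and 17, each with 8 of 8 microglial markers detected, and made up 997 and 520 nuclei of the R241E libraries and 924, 1470 and 1450 of the WT libraries. Clusters 2 and 1 held 41.4% and 39.4% of R241E microglia, whereas clusters 17 and 3 held 45.7% and 42.3% of WT microglia. The remaining nuclei resembled neurons, oligodendrocytes, astrocytes, mural cells, fibroblasts and rarer classes, although the sort was meant to remove neurons and oligodendrocytes. The class named monocytes or neutrophils was cluster 12. It was led by Cd74, H2-Aa, H2-Eb1 and H2-Ab1, genes of MHC class II presentation, ahead of S100a9, Ccr2 and S100a8, so it may hold other myeloid cells too. WT replicate 1 stood above the other WT libraries in border-associated macrophages and fibroblasts, but not in astrocytes, neurons or mural cells. A list of 26 interferon-stimulated genes (the list of the study without Isg15 and Usp18) summed to 2062 CPM (UMIs per 1000000 UMIs of the class) in its border-associated macrophages and to 1205 CPM in its fibroblasts, against 909 and 1213 CPM and 683 and 723 CPM in the other WT libraries, and its fibroblast sum included 46 UMIs of 1 nucleus. In neurons the list was at 677 CPM in WT replicate 1, below 925 and 977 CPM in the other WT libraries. Results that rest on WT replicate 1 are given with and without it. Scrublet, a doublet caller, called 0.442% of the nuclei, too few for a working caller, so its calls were not used, and doublets were held back only by the maximum numbers of genes and UMIs.

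Cgas, the targeted gene, was at 83.5 and 88.1 CPM in R241E microglia, against 66.5, 72.4 and 74.5 CPM in WT microglia. The difference did not pass the test (log2 fold change 0.25, adjusted p = 0.264, edgeR quasi-likelihood test), and gene counts do not tell the R241E transcript from the wild-type transcript.

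In the mm10 assembly, Isg15 (ENSMUSG00000035692) lies at chr4:156199424-156200818, Uba7 (ENSMUSG00000032596) at chr9:107975567-107984056, Ube2l6 (ENSMUSG00000027078) at chr2:84798828-84810003, Herc6 (ENSMUSG00000029798) at chr6:57580992-57665136 and Usp18 (ENSMUSG00000030107) at chr6:121245906-121270917. All are protein-coding. Gm46878 overlaps Isg15 and Gm19244 overlaps Herc6, and neither has an entry in the matrices. Gm44148, a long non-coding RNA gene, overlaps Usp18 and does have one. The kept nuclei held 580 UMIs of Isg15, 814 of Uba7, 142 of Ube2l6, 2950 of Herc6 and 1567 of Usp18, so that Ube2l6 was the least precisely measured member.

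Promoter windows are shown because the letters to which interferon-activated factors are known to bind differ between these genes. RefSeq tables for GRCm38.p6, the assembly of mm10, gave a window of 250 bases before and 50 bases after the gene start for Isg15, Uba7, Ube2l6 and Herc6. The 150 bases before the start are printed 5′ to 3′ on the strand of the gene, and capitals mark letters that match AANNGAAA, the core that interferon regulatory factors read, or the longer run of 2 copies of GAAA with 2 bases between them, on either strand. A match of the longer run always holds a match of the core. The windows are chr4:156200819-156200968 on the minus strand, and chr9:107975417-107975566, chr2:84798678-84798827 and chr6:57580842-57580991 on the plus strand.
Isg15: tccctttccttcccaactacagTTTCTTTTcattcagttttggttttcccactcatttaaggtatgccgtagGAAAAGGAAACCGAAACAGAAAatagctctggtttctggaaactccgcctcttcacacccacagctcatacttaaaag
Uba7: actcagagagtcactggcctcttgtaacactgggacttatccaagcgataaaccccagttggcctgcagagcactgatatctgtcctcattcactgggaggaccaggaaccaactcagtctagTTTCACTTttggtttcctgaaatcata
Ube2l6: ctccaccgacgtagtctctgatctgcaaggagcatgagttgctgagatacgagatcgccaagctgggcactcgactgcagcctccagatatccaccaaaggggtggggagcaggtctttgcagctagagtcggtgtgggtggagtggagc
Herc6: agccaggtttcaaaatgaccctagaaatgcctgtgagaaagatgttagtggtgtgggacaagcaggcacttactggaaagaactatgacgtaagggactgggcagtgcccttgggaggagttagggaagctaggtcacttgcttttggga

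In the Isg15 window, 3 overlapping matches of the longer run began 78, 72 and 66 bases before the start, and a further match of AANNGAAA lay on the opposite strand, 128 to 121 bases before it. Uba7 had 1 match of AANNGAAA on the opposite strand, 27 to 20 bases before the start. Neither set of letters was present in the windows of Ube2l6 and Herc6, and TTCNNNGAA, another set of letters known from interferon-responsive promoters, was in none of the 4. Of 32851 windows of 27025 genes, 3.44% held the longer run, 23.9% held AANNGAAA and 8.3% held TTCNNNGAA on either strand.

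In microglia, all 5 genes of the cycle were higher in R241E than in WT, Isg15 and Usp18 the most and Uba7 the least. All 5 passed the test, against 5.71% of the 12689 genes tested that were called higher, 3.11% that were called lower and 8.81% called in either direction. All 5 also did not overlap between the groups, against 19.9% of genes whose R241E values both lay above the 3 WT values. Values are UMIs of a gene per 1000000 UMIs of microglia in each library, given as mean ± SD (n = 2 R241E and n = 3 WT libraries), and adjusted p-values are from edgeR's quasi-likelihood test with Benjamini-Hochberg adjustment over all tested genes. Since CPM is not per length, levels are compared between libraries and not between genes.

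Isg15, the modifier, was at 46.0 and 47.9 CPM in the R241E libraries, against 1.22, 3.23 and 3.00 CPM in the WT libraries. Both R241E libraries lay far above all WT libraries and close to each other. The means were 47.0 ± 1.32 and 2.48 ± 1.10 CPM, and the log2 fold change was 4.11 (SE 0.26, adjusted p = 2.77e-08, edgeR). WT values rested on 3, 14 and 10 UMIs, so the size of the ratio is less certain than its direction.

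Uba7, the E1 enzyme that activates ISG15, was at 58.9 and 61.1 CPM in R241E, against 38.1, 33.4 and 37.0 CPM in WT. The groups did not overlap, and the gap between them was larger than the spread within either. The means were 60.0 ± 1.50 and 36.2 ± 2.42 CPM (log2 fold change 0.72, SE 0.14, adjusted p = 0.00317, edgeR), the smallest change of the 5. Without R241E replicate 1 the fold change was 0.74 and no longer passed (adjusted p = 0.0564, edgeR).

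Ube2l6, the E2 enzyme that receives ISG15 from UBA7, was at 11.98 and 13.2 CPM in R241E, against 3.24, 1.85 and 3.31 CPM in WT. Every R241E value was above every WT value. The means were 12.6 ± 0.853 and 2.80 ± 0.825 CPM, with a log2 fold change of 2.18 (SE 0.36, adjusted p = 7.77e-04, edgeR), the widest error of the 5.

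Herc6, the E3 ligase that transfers ISG15 to its targets, was at 260 and 253 CPM in R241E, against 81.0, 78.4 and 73.3 CPM in WT. Libraries of each group lay within a few CPM of each other and the groups were far apart. The means were 257 ± 4.56 and 77.6 ± 3.93 CPM (log2 fold change 1.71, SE 0.10, adjusted p = 1.25e-08, edgeR).

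Usp18, the protease that removes ISG15, was at 194 and 162 CPM in R241E, against 10.9, 10.6 and 12.6 CPM in WT. R241E replicate 1 was higher than replicate 2, and both were far above WT. The means were 178 ± 22.5 and 11.4 ± 1.08 CPM (log2 fold change 3.97, SE 0.15, adjusted p = 6.12e-11, edgeR). The overlapping Gm44148 was also higher, at 278 and 248 CPM against 77.4, 60.7 and 78.7 CPM (log2 fold change 1.87, adjusted p = 2.74e-08, edgeR). Whether strand was used in counting is not given in the sources used here, so reads of Usp18 and Gm44148 may have been exchanged.

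**Figure D1:**
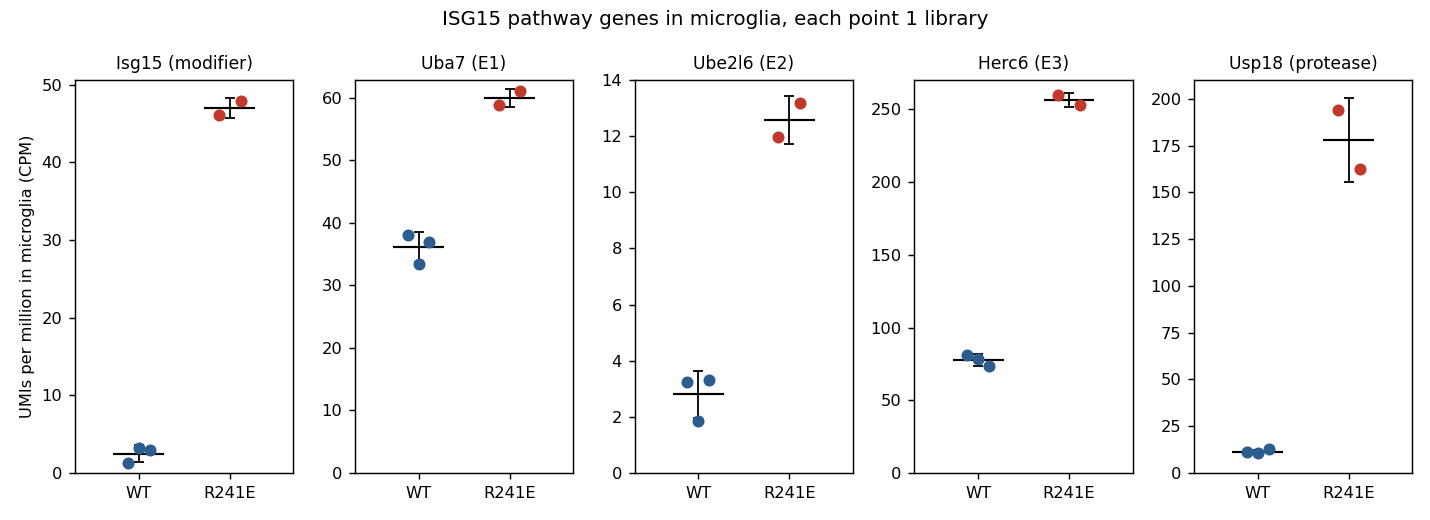
UMIs per 1000000 in microglia for the 5 genes of the ISG15 cycle, on a linear vertical axis of its own for each gene. Each point is 1 library (WT blue, R241E red), horizontal lines are group means and bars are SD, and in every panel both R241E points lie above all 3 WT points.

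Among the 12689 genes ordered by log2 fold change in microglia from the highest down, Isg15 was at place 55, Usp18 at place 62, Ube2l6 at place 149, Herc6 at place 224 and Uba7 at place 866. The median log2 fold change of all tested genes was -0.0031.

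Whether the members changed by different amounts was tested on the log2 ratio of 2 members in each library (pseudocount 0.5 CPM), over all 10 pairs, with a two-sided exact permutation test. With 2 against 3 libraries the smallest p is 0.1, so no pair could pass. In 8 of 10 pairs the ratios of the groups did not overlap, against 39.1% of all pairs of the genes tested in microglia. Isg15 rose over Uba7 by 3.35 (exact p = 0.1, adjusted 0.143), and the log2 ratio of Uba7 to Usp18 was -1.71 and -1.40 in R241E against 1.75, 1.61 and 1.51 in WT. The ratio of Uba7 to Usp18 thus changed by -3.18.

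The ratio of Herc6 to Usp18 changed by -2.19, that of Uba7 to Herc6 by -0.995 and that of Uba7 to Ube2l6 by -1.30 (each exact p = 0.1, adjusted 0.143). The modifier and the protease changed by amounts whose difference was within the spread between libraries. Their log2 ratio was -2.07 and -1.75 in R241E and -2.74, -1.57 and -1.90 in WT, a change of 0.164 (exact p = 0.9, adjusted 0.9). Ube2l6 and Herc6, the E2 and the E3, also overlapped, with a change of 0.301 in their log2 ratio (exact p = 0.5).

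The share of nuclei with a UMI was read after each microglial nucleus had been thinned to 1000 UMIs, which left 992, 496, 902, 1447 and 1386 nuclei and dropped 5, 24, 22, 23 and 64 shallower ones, in the order R241E replicates 1 and 2 and WT replicates 1 to 3. Isg15 was seen in 3.53% and 3.63% of R241E nuclei and in 0%, 0.415% and 0.289% of WT nuclei. The 0% was 0 of 902 nuclei, which allows a share of up to 0.408% (upper bound of the exact 95% Clopper-Pearson interval). Without thinning the shares were 8.12% and 8.27% against 0.325%, 0.612% and 0.552%.

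The groups did not overlap for any member in these shares, and 17.6% of the genes tested in microglia were likewise higher in both R241E libraries than in all WT libraries. Uba7 was seen in 5.54% and 5.04% of R241E nuclei and in 3.77%, 3.18% and 3.32% of WT nuclei, and Ube2l6 in 1.11% and 1.21% against 0.333%, 0.0691% and 0.433%. Herc6 was seen in 18.3% of nuclei in each R241E library and in 7.10%, 7.33% and 7.36% of WT nuclei, and Usp18 in 13.8% and 11.9% against 0.776%, 1.11% and 1.44%. For each member the two-sided exact permutation test gave p = 0.1, adjusted 0.1, the smallest value that it can give with these libraries. Unthinned shares were 14.2% to 16.5% against 7.93% to 9.63% for Uba7, 3.41% to 3.65% against 0.544% to 0.690% for Ube2l6, 34.4% to 38.3% against 13.3% to 17.3% for Herc6 and 19.6% to 28.1% against 2.28% to 2.72% for Usp18.

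Neurons, among the classes with the lowest levels of these genes, were read beside microglia. How many of their UMIs came from free RNA was not tested. Their median depth was 2663 to 5060 UMIs, against 2061 to 3095 in microglia. After thinning, Isg15 was seen in 0% of neurons in both R241E libraries and in 0%, 1.01% and 1.02% of neurons in the WT libraries. The Isg15 shares of WT microglia as a whole were at or below those of WT neurons, which rest on at most 1 nucleus per library, so no expression is read from these WT shares. Thinned neuron shares were 0% to 1.02% for Uba7, 0% for Ube2l6, 0.893% to 2.04% for Herc6 and 0% to 2.19% for Usp18. The Usp18 shares of neurons were 1.79% and 2.19% in R241E and 0.357%, 0% and 0% in WT.

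At 1000 UMIs, 33.8% and 31.0% of R241E microglial nuclei held a UMI of any member, against 11.4%, 11.3% and 11.98% of WT nuclei. At least 2 members were seen together in 6.85% and 7.26% against 0.554%, 0.622% and 0.649%, and no nucleus of any library held all 5. Herc6 and Usp18 were seen more often beside Isg15 than without it in both R241E libraries, and Uba7 was not. Herc6 was seen in 54.3% and 66.7% of nuclei with an Isg15 UMI (19 of 35 and 12 of 18 nuclei) and in 17.03% and 16.5% of nuclei without one. Usp18 was seen in 42.9% and 61.1% of nuclei with Isg15 and in 12.7% and 10.04% of those without. Uba7 was seen in 2.86% (1 of 35) and 0% (0 of 18) of nuclei with Isg15 and in 5.64% and 5.23% of those without. These shares describe nuclei within 2 libraries and carry no test.

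Cluster 14, led by the interferon-stimulated genes Ifi207, Oasl1 and Cxcl10, held 98 and 38 nuclei of the R241E libraries (9.83% and 7.31% of their microglia) and 1, 4 and 3 nuclei of the WT libraries. The WT nuclei of the cluster held 1 of 3, 3 of 14 and 2 of 10 of the Isg15 UMIs of WT microglia. In the R241E libraries the nuclei of the cluster carried 11.2% and 9.19% of all microglial UMIs, but 74.0% and 65.2% of those of Isg15, 52.3% and 53.4% of those of Usp18 and 45.0% and 43.6% of those of Herc6. Ube2l6 was between, with 34.2% and 15.8%, and Uba7 was close to the share of all UMIs, with 13.9% and 12.5%. The cluster was picked as the one with the highest Isg15 level and was made from these same nuclei and genes, so its values are descriptions.

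**Figure D2:**
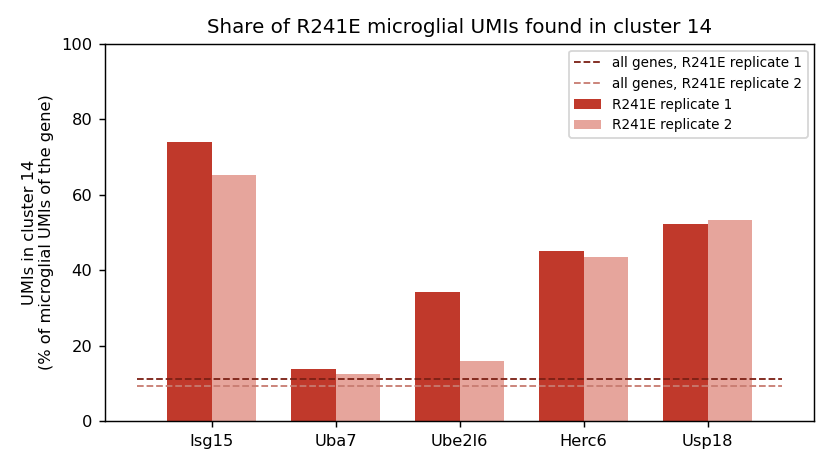
Percent of the microglial UMIs of each gene that lay in the nuclei of cluster 14, for R241E replicates 1 (dark) and 2 (light), on a linear axis from 0. Dashed lines give the share of all UMIs in the cluster, 11.2% and 9.19%, and only the bars of Uba7, at 13.9% and 12.5%, lie close to them.

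Inside cluster 14, Isg15 was at 305 and 340 CPM, Herc6 at 1049 and 1201 CPM and Usp18 at 910 and 944 CPM in the R241E libraries. Uba7 was at 73.5 and 83.1 CPM there and at 57.1 and 58.8 CPM in the other microglia of the same libraries. The 8 WT nuclei of cluster 14, pooled, were at 375 CPM for Isg15, 1685 CPM for Herc6, 811 CPM for Usp18 and 250 CPM for Uba7. High levels inside the cluster were thus not limited to R241E nuclei. Outside cluster 14 the difference between the groups was smaller and kept its direction for all 5 genes, with no overlap between the libraries. The share of all genes that did the same there was not counted. The mean was 15.9 against 1.92 CPM for Isg15, 58.0 against 35.8 CPM for Uba7, 10.5 against 2.70 CPM for Ube2l6, 159 against 75.3 CPM for Herc6 and 93.8 against 10.2 CPM for Usp18 (R241E against WT). Leaving out cluster 14 took the ratio of means from 18.9 to 8.29 for Isg15, from 15.7 to 9.22 for Usp18 and from 1.66 to 1.62 for Uba7. Since cluster 14 was picked by its Isg15 level, a fall for Isg15 was built in, and no conclusion is drawn from these ratios. The nuclei outside it included cluster 2, with Ifi204 and Ifi207 among its leading genes and 41.4% of R241E and 3.04% of WT microglia. Pooled over cluster 2, Isg15 was at 21.8 CPM in R241E and 23.5 CPM in WT. Herc6 was at 197 and 188 CPM and Usp18 at 151 and 106 CPM there.

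To read the members where few other interferon-stimulated genes were seen, each UMI was put at random into part A or part B, nuclei were chosen by having no UMI in part A of the 26-gene interferon list, and the members were read in part B. The list was used by the study on these same samples. The choice left 116 and 104 R241E nuclei and 621, 911 and 945 WT nuclei. The chosen nuclei still differed in part B, where the list itself was at 13.4 and 10.7 UMIs per 10000 in R241E against 2.92, 3.00 and 2.84 in WT. In the WT nuclei not chosen the list was at 6.45, 6.59 and 7.15, so the chosen R241E nuclei were above these too.

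In these nuclei Uba7 was at 0.746 and 0.816 UMIs per 10000 in R241E and at 0.391, 0.283 and 0.341 in WT, a difference of 0.443 that another random division of the UMIs put at 0.234. Herc6 was at 1.34 and 1.02 against 0.678, 0.648 and 0.692, and Usp18 at 0.298 and 0.510 against 0.0782, 0.141 and 0.0723. The groups did not overlap for these 3 genes (each exact permutation p = 0.1, adjusted 0.167, two-sided). The share of all genes without overlap in the chosen nuclei was not counted. Isg15, with 0 and 2 UMIs in the R241E libraries, overlapped between the groups (exact permutation p = 0.4), but the other random division put it at 0.160 and 0.177 in R241E against 0, 0.00863 and 0.0200 in WT, with no overlap (exact permutation p = 0.1). The outcome for Isg15 thus depended on the division. Ube2l6, with 1 and 0 UMIs, overlapped in both divisions (exact permutation p = 0.7 in each).

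The wider pathway was read from a list of 24 genes: further enzymes that act with ISG15, the signalling chain of the type I interferon receptor, and proteins that ISG15 is known to modify or bind. Mx1 was not matched in the matrices and Itgal, a subunit of the integrin that senses free ISG15, was below the filter on low counts (7 and 3 against 1, 0 and 0 UMIs). Of the 22 genes tested, 9 were higher in R241E microglia and 0 were lower (10 at an unadjusted p under 0.05, edgeR), with a median log2 fold change of 0.19 beside -0.0031 for all genes. Of all 12689 genes tested in microglia, 5.71% were called higher and 3.11% lower, and 2570 had an unadjusted p under 0.05 (edgeR).

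Irf7, Stat2 and Rnf213 are also on the interferon list that the study used on these samples. The genes called included the transcription factors that carry the interferon signal, Irf7 (3.54), Stat2 (2.36) and Irf9 (1.11). They also included RNA sensors and effectors that are known targets or partners of ISG15, namely Bst2 (2.63), Eif2ak2 (1.98), Ifih1 (1.97), Rnf213 (1.96) and Ddx58 (1.36), and Trim25, another ligase reported for ISG15 (1.44). The receptor and its kinases did not pass, with Ifnar1 at 0.35, Ifnar2 at 0.17, Tyk2 at 0.21 and Jak1 at -0.03 on the log2 scale. Proteases other than Usp18 did not pass either (Usp16 0.18, Usp14 0.08 and Usp21 0.07), nor did Herc3 (0.17) and Herc4 (0.04), relatives of Herc6, or the ligases Arih1 (0.03) and Skp2 (-0.35). The values of Irf3 (-0.12) and Itgb2 (0.13) completed the list.

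Genes with the same roles for ubiquitin and other ubiquitin-like modifiers were read from a list of 16, all of them tested. None was called in either direction (edgeR), against 8.81% of all genes, a share at which few calls among so few genes could be seen, 1 had an unadjusted p under 0.05, and the median log2 fold change was 0.02. Uba1, the main E1 enzyme of ubiquitin, was at 45.1 and 49.3 CPM in R241E, against 43.8, 42.7 and 56.8 CPM in WT, and Ube2l3, an E2 enzyme related to Ube2l6, was at 82.6 and 63.2 CPM against 72.9, 69.2 and 67.3 CPM. Both overlapped between the groups, with log2 fold changes of -0.04 and 0.09. The largest value was that of the ubiquitin gene Ubb (0.48, SE 0.16, adjusted p = 0.0741, edgeR), and the lowest that of Uba6 (-0.29). The modifier Nedd8 was at 0.03. Differences between these genes and the ISG15 genes were not tested.

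**Figure D3:**
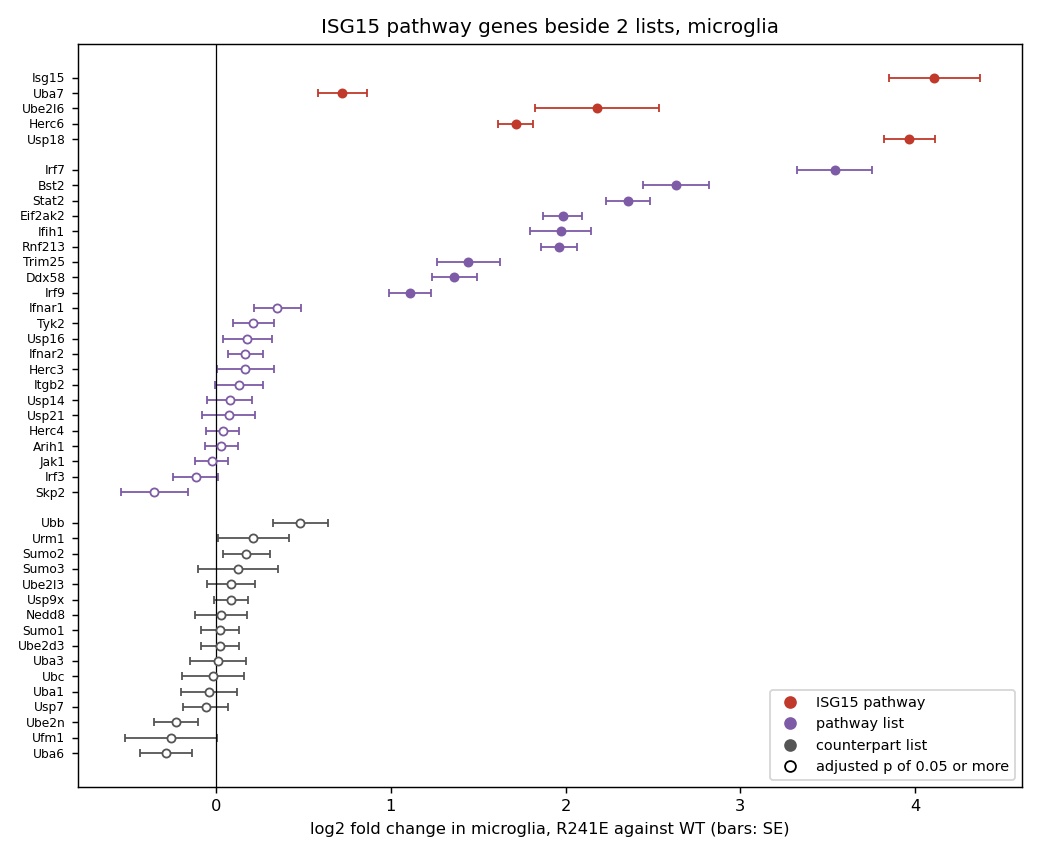
Log2 fold change in microglia, R241E against WT, with SE bars, for the 5 ISG15 genes (red), the 22 tested genes of the pathway list (purple) and the 16 genes of the counterpart list (grey). Open points have an adjusted p of 0.05 or more: all 5 red points and 9 purple points are filled, and no grey point is.

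Outside microglia, a class was tested where no library held fewer than 20 of its nuclei. Of 9 combinations of a member and a class that passed the filter on low counts, 2 were called, Usp18 in astrocytes and Herc6 in border-associated macrophages, and both calls were lost under other settings. The share of genes called higher was 0.292% in astrocytes, 0.992% in border-associated macrophages, 0% in fibroblasts and 0.267% in oligodendrocytes, and the share called in either direction was 0.457%, 1.14%, 0.0172% and 0.285%. No member passed the filter in mural cells or neurons, where 0% and 0.0111% of genes were called higher.

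In border-associated macrophages, which the driver is described as reaching too, Herc6 was at 227 and 252 CPM in R241E, against 120, 75.2 and 99.1 CPM in WT. The groups did not overlap (11.8% of genes did the same), and the log2 fold change of 1.28 (SE 0.28) passed the test (adjusted p = 0.0157, edgeR). The call was lost without R241E replicate 1 (adjusted p = 0.0779) and without WT replicate 2 (adjusted p = 0.244).

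Usp18 in the same cells was at 135 and 181 CPM in R241E, against 200, 18.8 and 40.8 CPM in WT. WT replicate 1 was above both R241E libraries, and the other WT libraries were below them. The log2 fold change was 0.87 (adjusted p = 0.674, edgeR) with all libraries and 2.32 (adjusted p = 0.00815, edgeR) without WT replicate 1. In that library, the nucleus with the most UMIs of the 5 members together held 9 of the 30 UMIs of Usp18.

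Uba7 in border-associated macrophages was at 67.4 and 86.5 CPM in R241E, against 53.2, 87.7 and 52.5 CPM in WT, so the groups overlapped (log2 fold change 0.21, adjusted p = 0.967, edgeR). Isg15 and Ube2l6 were below the filter there, Isg15 at 12.2 and 23.6 CPM against 33.3, 0 and 5.83 CPM and Ube2l6 at 21.4 and 7.86 CPM against 6.65, 0 and 0 CPM.

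In astrocytes, Usp18 was at 49.9 and 31.2 CPM in R241E, against 6.10, 0 and 5.86 CPM in WT. The groups did not overlap, as for 10.4% of genes in this class, and the log2 fold change was 3.20 (SE 0.59, adjusted p = 0.0344, edgeR). WT values rested on 5 UMIs in all, and the call was lost without R241E replicate 1 (adjusted p = 0.999), WT replicate 2 (0.221) or WT replicate 3 (0.150). Herc6 was at 107 and 164 CPM against 45.8, 42.3 and 83.9 CPM, with no overlap and no call (log2 fold change 1.18, adjusted p = 0.134, edgeR). The astrocyte class joined clusters 6 and 22, in a mix that differed between the groups. Cluster 6 gave 172 of 177 and 83 of 127 nuclei in R241E, and 38 of 64, 17 of 58 and 30 of 144 in WT. Whether this mix bears on the values was not tested.

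Isg15 in astrocytes was below the filter, at 10.9 and 14.6 CPM in R241E, against 0 in all 3 WT libraries, where 3 UMIs would have been 9.15, 11.5 and 5.86 CPM. The 8 microglial markers summed to 252 and 351 CPM in R241E astrocytes and to 299, 412 and 445 CPM in WT astrocytes, 3.50% to 5.23% of their level in microglia. Isg15, Herc6 and Usp18 in R241E astrocytes were at 23.6% and 30.4%, at 41.4% and 64.9%, and at 25.7% and 19.2% of their levels in microglia of the same library, and Uba7 at 9.21% and 0%. The part of microglial RNA in these values was not tested.

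In oligodendrocytes, Herc6 was at 35.5 and 55.0 CPM in R241E, against 8.86, 7.01 and 12.1 CPM in WT. The groups did not overlap, as for 9.09% of genes there, but the test was not passed (log2 fold change 2.11, adjusted p = 0.220, edgeR). Usp18, below the filter, was at 19.6 and 58.4 CPM against 0, 7.01 and 0 CPM. In neurons, Usp18 was at 17.8 and 11.1 CPM against 0.761, 0 and 2.71 CPM, with no overlap (14.7% of genes did the same). Uba7 went the other way, at 0 in both R241E libraries against 1.52, 4.29 and 10.9 CPM, on 8 UMIs in all. The share of genes with R241E values below all WT values was not counted. Herc6 overlapped, at 14.6 and 16.6 CPM against 9.14, 17.2 and 19.0 CPM.

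In mural cells, the contractile cells of vessel walls, Isg15 was at 30.4 and 55.8 CPM in R241E, against 0, 5.97 and 6.24 CPM in WT, on 28 and 2 UMIs in all. Usp18 was at 30.4 and 63.2 CPM against 25.96, 17.9 and 12.5 CPM, and Herc6 overlapped. None was tested in this class, in which 9.19% of genes had R241E values above all WT values.

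In fibroblasts, Isg15 was at 44.1 and 30.8 CPM in R241E, against 171, 4.07 and 11.6 CPM in WT. WT replicate 1 was the highest of all 5 libraries, and the remaining WT libraries were the lowest. The log2 fold change was 0.0030 (adjusted p = 1.00, edgeR). Herc6 was at 85.5 and 71.9 CPM against 171, 56.9 and 42.5 CPM, and Usp18 at 52.4 and 55.4 CPM against 74.6, 4.07 and 15.5 CPM, with WT replicate 1 again highest (log2 fold changes 0.15 and 1.37, adjusted p = 0.998 and 0.724, edgeR). Of all genes in this class, 8.52% had R241E values above all WT values, and none of these 3 did. The fibroblast class joined clusters 0 and 11. Cluster 11 gave 108 of 167 and 82 of 151 nuclei in R241E, and 9 of 30, 27 of 67 and 43 of 94 in WT. Whether this mix bears on the values was not tested.

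Of the 30 fibroblast nuclei of WT replicate 1, a single nucleus with 3698 UMIs held all 16 UMIs of Isg15, 11 of 16 of Herc6 and 6 of 7 of Usp18, and also 46 UMIs of the other interferon-list genes. Without it, the log2 fold change was 0.69 for Herc6 and 2.43 for Usp18 in fibroblasts, still without a call (adjusted p = 0.686 and 0.200, edgeR), and Isg15 fell below the filter.

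**Figure D4:**
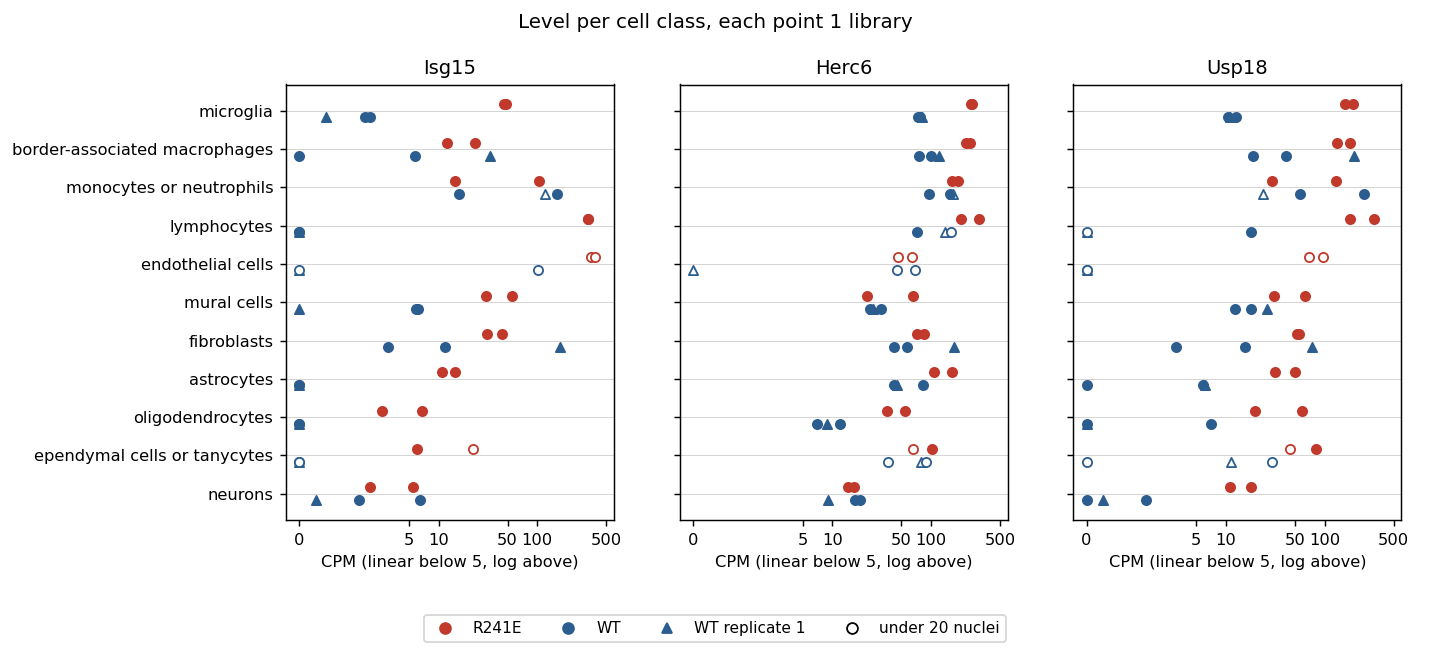
Level of Isg15, Herc6 and Usp18 per cell class in UMIs per 1000000 of the class, on an axis that is linear below 5 and logarithmic above. Each point is 1 library (R241E red, WT blue, triangles WT replicate 1, open points under 20 nuclei); in microglia the groups are far apart, and in fibroblasts the triangle is the highest point in each panel.

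The order of the classes differed between the members. In R241E libraries Herc6 was highest in microglia (257 ± 4.56 CPM), lymphocytes (255 ± 73.7), border-associated macrophages (239 ± 17.7) and monocytes or neutrophils (176 ± 19.9), followed by astrocytes (136 ± 40.2), and lowest among the tested classes in neurons (15.6 ± 1.44). The ranges of the libraries overlapped between microglia and lymphocytes, between lymphocytes and border-associated macrophages, and between monocytes or neutrophils and astrocytes. In WT libraries monocytes or neutrophils (140 ± 38.2 CPM), lymphocytes (124 ± 46.1), border-associated macrophages (98.01 ± 22.3), fibroblasts (90.0 ± 70.1) and microglia (77.6 ± 3.93) overlapped their neighbours, and oligodendrocytes were lowest (9.33 ± 2.59).

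Uba7 was at 76.9 ± 13.5 CPM in R241E and 64.5 ± 20.1 CPM in WT border-associated macrophages, at 60.6 ± 39.3 and 37.1 ± 16.9 CPM in monocytes or neutrophils and at 47.6 ± 19.5 and 52.4 ± 75.7 CPM in lymphocytes, beside 60.0 ± 1.50 and 36.2 ± 2.42 CPM in microglia. Each of these 4 classes overlapped its neighbour in the order, in R241E and in WT. Endothelial cells, with few nuclei, were at 32.1 ± 45.4 and 37.6 ± 39.3 CPM, a range that held those of microglia and fibroblasts in both groups. Fibroblasts were at 13.04 ± 4.79 and 14.1 ± 4.62 CPM, and astrocytes, oligodendrocytes and neurons were at means from 0 to 5.56 CPM. Ube2l6 was at means of at most 14.6 CPM in all R241E classes, and no order can be read between border-associated macrophages (7.86 to 21.4 CPM), microglia (11.98 to 13.2 CPM) and lymphocytes (0 to 23.9 CPM).

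Isg15 in R241E libraries was highest in endothelial cells (366 ± 26.6 CPM) and lymphocytes (326 ± 1.97 CPM), then in monocytes or neutrophils (59.8 ± 63.8), microglia (47.0 ± 1.32), mural cells (43.1 ± 17.9) and fibroblasts (37.5 ± 9.44). Of these, the range of monocytes or neutrophils held those of microglia, mural cells and fibroblasts. Border-associated macrophages were lower, at 17.9 ± 8.02 CPM, and neurons were at 4.39 ± 1.62 CPM. In WT libraries, monocytes or neutrophils were highest (97.4 ± 73.0 CPM), and microglia were at 2.48 ± 1.10 CPM.

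Usp18 in R241E libraries was at 247 ± 94.5 CPM in lymphocytes, 178 ± 22.5 in microglia and 158 ± 32.6 in border-associated macrophages, with overlapping ranges. It was at 82.9 ± 18.9 CPM in endothelial cells, 80.3 ± 71.9 in monocytes or neutrophils, 63.3 ± 26.9 in ependymal cells or tanycytes, 53.9 ± 2.13 in fibroblasts, 46.8 ± 23.2 in mural cells, 40.6 ± 13.3 in astrocytes, 39.0 ± 27.4 in oligodendrocytes and 14.4 ± 4.77 in neurons. In WT libraries its highest means were in monocytes or neutrophils (111 ± 123 CPM) and border-associated macrophages (86.4 ± 98.6 CPM), and microglia were at 11.4 ± 1.08 CPM. Differences between classes within a group are descriptions, since the clusters were made from the same genes.

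Whether the effect of the genotype differed between microglia and another class was tested in a fit with library as a block, for the same 9 combinations. In 4 of 9 the effect was larger in microglia, against 0.505% of genes for border-associated macrophages, 0.595% for fibroblasts, 0.517% for astrocytes and 0.449% for oligodendrocytes. Members outside these 9 combinations were in the fits too, also against mural cells and neurons, and none of them was called. For mural cells and neurons, 0.234% and 0.0998% of genes had a larger effect in microglia. The difference in log2 fold change between microglia and border-associated macrophages was 2.97 for Usp18 (SE 0.41, adjusted p = 3.05e-10, edgeR). Between microglia and fibroblasts it was 3.86 for Isg15 (SE 0.62, adjusted p = 4.74e-07), 1.45 for Herc6 (SE 0.36, adjusted p = 0.00968) and 2.46 for Usp18 (SE 0.61, adjusted p = 0.00943).

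All 4 calls rested on WT replicate 1. Without it the difference for Usp18 against border-associated macrophages was 1.59 (adjusted p = 0.481), and those against fibroblasts were 1.50 for Isg15, 0.97 for Herc6 and 1.39 for Usp18 (adjusted p = 0.822, 0.481 and 0.775, edgeR). Leaving out the single fibroblast nucleus alone gave 1.38, 0.97 and 1.42 for the same 3 genes, none called (adjusted p = 0.835, 0.370 and 0.654, edgeR). With 1 R241E library left out, which leaves 1 in that group, the Herc6 and Usp18 calls against fibroblasts did not all hold either. Without R241E replicate 1 the differences were 1.55 for Herc6 and 2.25 for Usp18, and without R241E replicate 2 they were 1.30 and 2.55. Herc6 did not pass against border-associated macrophages (0.41, SE 0.32, adjusted p = 0.934), astrocytes (0.53, SE 0.30, adjusted p = 0.664) or oligodendrocytes (-0.38, SE 0.53, adjusted p = 0.972), nor did Usp18 against astrocytes (0.65, SE 0.77, adjusted p = 0.911) or Uba7 against border-associated macrophages (0.48, SE 0.47, adjusted p = 0.962, edgeR).

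**Figure D5:**
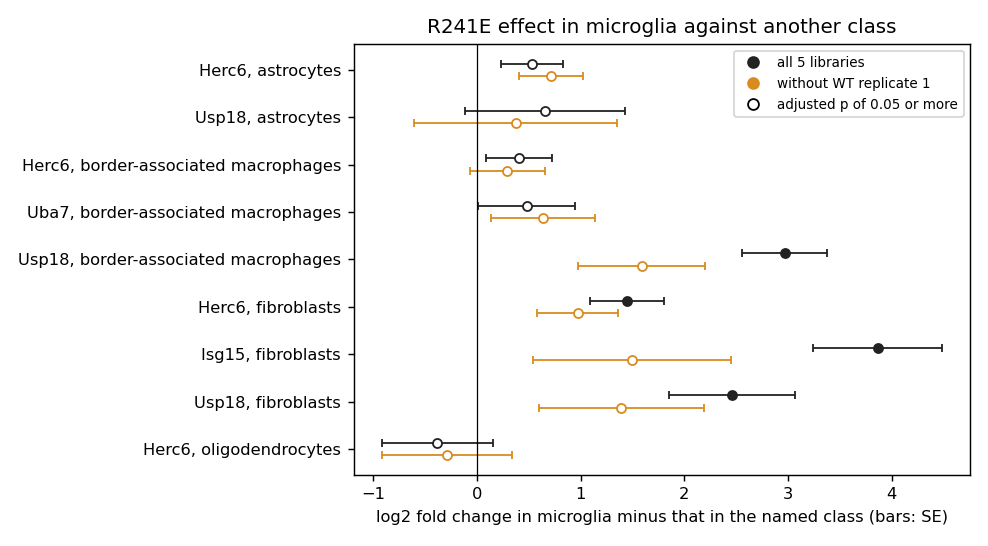
Log2 fold change of R241E against WT in microglia minus that in the named class, with SE bars, for the 9 combinations of a gene and a class, with all 5 libraries (black) and without WT replicate 1 (orange). Filled points have an adjusted p under 0.05: 4 black points are filled, and no orange point is.

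For each member, the genes with the most alike pattern were taken by Pearson's r of log2(CPM + 1) over the 35 sums of 5 libraries and 7 tested classes, among 10497 genes with at least 100 UMIs in microglia. These r values are descriptions over sums that share libraries and depth. They were Rps26 (r = 0.820), Irf7 (0.781) and Gm7030 (0.778) for Isg15, Ctsh (0.905), Hps3 (0.862) and Sp100 (0.860) for Uba7, and Pkn2 (0.717), Gm31718 (0.711) and Tor1aip2 (0.709) for Ube2l6. For Herc6 they were A930037H05Rik (0.915), Rnf213 (0.893) and Tor1aip1 (0.892), and for Usp18 Iigp1 (0.874), H2-K1 (0.853) and B2m (0.846). Between members, r was highest for Isg15 with Usp18 (0.737) and Herc6 with Usp18 (0.734) and lowest for Ube2l6 with Herc6 (0.441).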

How the data were processed

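Single nuclei from 5 mice were sequenced by the authors, and the deposited values were raw UMI counts per gene and nucleus, made with Cell Ranger 7.0.0 against mm10, 1 matrix per library. Whether strand and introns entered the counts is not given in the sources used here. The genes and lists were chosen with earlier results of these data known.

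Nuclei with at least 200 and under 4500 genes, under 10000 UMIs and under 5% mitochondrial UMIs were kept, as in the methods of the study. They were clustered together in scanpy 1.11.5 (3000 variable genes, 30 principal components, 20 neighbours, Leiden resolution 1, no integration), and clusters were named from markers when 3 were each detected in 10% of nuclei with a mean log2 fold of 2. Names stand for nuclei that resemble the class and were rebuilt here, so values may differ from those of the study for that reason.

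Counts were summed per library and class and tested in edgeR 4.0.16 (R 4.3.3, filterByExpr, TMM, quasi-likelihood test, threshold 0.05 after Benjamini-Hochberg adjustment). Alternatives included DESeq2 1.42.0 and limma 3.58.1. CPM is per 1000000 UMIs of the class. Intervals (95%) and limits of 3 counts cover counting error only. In simulated microglial counts with 200 of 12419 genes changed 2-fold, 66.5% were recovered with 2 false calls. Named genes were the 5 members, Cgas, all genes of the pathway and counterpart lists and, per member, the 3 genes of highest r. Gm44148 and the genes leading clusters 2, 12 and 14 were added after their values were seen. 1 further gene drawn up for the pathway list is not reported here and is left out of its counts. Groups and replicate numbers came from the sample titles.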

Additional observations from a re-analysis of the deposited data

Results flagged for a closer look

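The effect of R241E was larger in microglia than in another class for 4 combinations of a gene and a class, by the test of the difference itself. The differences in log2 fold change were 2.97 for Usp18 against border-associated macrophages and 1.45 for Herc6, 3.86 for Isg15 and 2.46 for Usp18 against fibroblasts. None of these held without WT replicate 1, in which 1 fibroblast nucleus carried all 16 Isg15 UMIs of its class.

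Some classes too small to test held levels above those of the WT libraries. In monocytes or neutrophils this differed between the members. Isg15 was at 77.1 CPM in R241E and 73.8 CPM in WT there, and Usp18 at 99.8 and 104 CPM. Ube2l6 was at 4.54 and 30.4 CPM, on 1 and 7 UMIs, and 1 nucleus of WT replicate 2 held 5 of these WT UMIs. Herc6 was at 181 and 126 CPM, on 40 and 29 UMIs, and Uba7 at 49.9 and 43.4 CPM, on 11 and 10 UMIs. In R241E lymphocytes, Isg15 was at 325 CPM over both libraries (124 UMIs in 155 nuclei, exact 95% Poisson interval 270 to 387 CPM), with 324 and 327 CPM in the separate libraries, whereas the 38 WT lymphocyte nuclei held 0 UMIs. Set against 3 UMIs over the WT group, or 40.0 CPM, the R241E level was 8.12-fold, which is no strict lower bound. The exact 95% Poisson interval of WT reached 49.2 CPM. In R241E replicate 2, 1 lymphocyte nucleus held 13 of the 29 Isg15 UMIs of the class. Usp18 was at 283 CPM (232 to 342) against 13.3 CPM on 1 UMI, and Herc6 at 283 CPM (232 to 342) against 93.4 CPM (37.6 to 192) on 7 UMIs. The 8 microglial markers in lymphocytes were at 4.36% and 5.15% of their microglial level in R241E and at 1.74%, 9.77% and 3.40% in WT, while Isg15 was at 705% and 683% of its microglial level in the R241E libraries.

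In endothelial cells Isg15 was at 363 CPM (239 to 529) in R241E, on 27 UMIs that came from 4 nuclei of 1 library and 2 of the other, and at 46.9 CPM (9.67 to 137) on 3 UMIs in WT. In ependymal cells or tanycytes Usp18 was at 79.9 CPM (60.3 to 104) in R241E and at 11.4 CPM (1.38 to 41.0) on 2 UMIs in WT. This R241E value is nearly that of 1 library, since 54 of its 56 UMIs came from the 134 nuclei of R241E replicate 1. The 12 nuclei of R241E replicate 2 held 2 UMIs. These intervals cover counting error only, and the groups were not tested.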

How the results depend on the processing

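In microglia, all 5 members kept their direction under all alternatives run, over 17 settings each: 3.87 to 4.36 for Isg15, 0.67 to 0.76 for Uba7, 1.91 to 2.34 for Ube2l6, 1.60 to 1.74 for Herc6 and 3.80 to 4.08 for Usp18 (log2 fold change), and 4 to 5 were called when 1 library was left out. Over all genes, 1118 were called in microglia, 719 after thinning to 1000 UMIs, and 520 to 1514 without 1 library. Of the other classes, 2 combinations were called, but 0 with the Wald test of DESeq2 (3 combinations tested), 1 with limma-voom, 4 without a filter on low counts, 0 after thinning (2 combinations tested), 1 at Leiden resolution 0.5 and 0 to 3 without 1 library. The cause was not tested. Of the differences between classes, 4 were called, but 1 without the top nucleus of each library, 1 without the single WT fibroblast nucleus and 0 to 4 without 1 library; both settings on single nuclei were chosen after the data were seen. In fibroblasts, Isg15 was at -0.0052 with DESeq2 size factors and Isg15 and Herc6 ranged from -0.67 to 2.29 and from -0.24 to 0.73 without 1 library. Without the top nuclei, Usp18 in microglia minus astrocytes was -0.48. With at most 1 list UMI allowed in part A, 5 members did not overlap, against 3, and the share of all genes was not counted. The counterpart list had 0 calls, 1 without a filter and 0 to 1 without 1 library.

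With the replicate block, 2023 genes were called in microglia, all 5 members among them, 4 combinations in other classes, 1 gene of the counterpart list, and the fibroblast values were -0.31 for Herc6 and -0.64 for Isg15. The numbers need not pair mice: deviations of same-numbered libraries correlated at 0.173 and -0.030, and WT replicate 3 stands alone in its block. Depth limits Isg15 and Ube2l6 in WT microglia, with 27 UMIs each.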
